A study of Homo sapiens with 6 samples.

Results

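The genes described here are the matrix metalloproteinases (MMPs) and their tissue inhibitors (TIMPs), the cathepsins, the B and E clades of the serpins, the plasminogen activators PLAU and PLAT with the receptor PLAUR, the membrane protease matriptase (ST14) with its inhibitors SPINT1 and SPINT2, and basigin (BSG). They were taken by gene symbol alone, without use of any measured value in the rule, from the probe sets that carry exactly 1 symbol in the platform annotation. Earlier results of these data were known when the rule was set. The rule found 57 genes, read by 89 probe sets, among 11963 genes read by 19065 such probe sets. Of the 57 genes, 17 had at least 2 probe sets, and each gene is represented by the probe set with the highest mean value over the arrays.

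The study set E1, which its labels call a metastatic colon cancer line derived in vivo, beside HCT116, an established human colon cancer line that they call poorly metastatic. The cell line field of the E1 samples also reads HCT116, so both are treated here as related lines, and how E1 was selected is not given in the sources used here. No treatment, dose or time point is given for either line. RNA was hybridised to 3 Affymetrix arrays per line, and whether these came from separate cultures is not stated, so that the p-values measure only the spread between arrays, which may be technical. Each condition is represented by 1 line, so a difference that goes with metastasis and one between any pair of lines cannot be told apart.

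MMPs are zinc endopeptidases, most of them secreted as inactive proenzymes, that cut collagens, laminins and other matrix proteins, and TIMPs bind and block their active sites. Urokinase (PLAU), held at the cell surface by its receptor PLAUR, turns plasminogen into plasmin, which degrades fibrin and activates some MMPs, while many serpins, though not all, trap serine proteases in an irreversible complex. Cathepsins work mainly in lysosomes, and some are secreted by tumour cells. In colorectal tumours much of the MMP and urokinase protein is known to come from stromal fibroblasts and leukocytes, which are absent from a culture of 1 cell line.

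Values are linear probe set intensities, and differences are E1 minus HCT116 on the scale of log2(intensity + 32), tested with limma and adjusted over all 11963 genes. The offset understates the difference of a dim gene. Intensities of different probe sets depend on their oligonucleotides, so no gene is ranked against another by its intensity. The 3 E1 arrays differed from each other. The ratio of 3' to 5' signal of the GAPDH control probe sets was 0.803, 34.1 and 71.9 on E1 arrays 1, 2 and 3, against 0.774 to 0.811 on the HCT116 arrays, and that of ACTB was 1.12, 46.1 and 89.9, against 0.930 to 1.00 on the HCT116 arrays. Values from E1 array 1 alone are therefore given beside many of the results. As labelled, both lines showed signal for the epithelial genes EPCAM, CDH1, KRT8, KRT18 and KRT19, at means of 716 to 5918 in E1 and 705 to 7847 in HCT116. KRT8 read 2862, 372 and 103 on E1 arrays 1, 2 and 3, against 4693, 3169 and 4352 on HCT116 arrays 1, 2 and 3. Its difference was -2.91 (SE 1.03, adjusted p = 0.284), or -0.48 with E1 array 1 alone. KRT18 was also lower on every E1 array, at a difference of -0.40, while EPCAM, CDH1 and KRT19 overlapped between the lines. The other 6 of 11 colon epithelial markers, CDX2, CDX1, VIL1, LGALS4, KRT20 and CDH17, had means of 6.69 to 67.7 in E1 and 4.25 to 58.4 in HCT116. The summed intensity of the 11 was 11674 to 14682 in E1 and 16872 to 19491 in HCT116. The summed intensity of 9 fibroblast markers was 303 to 452 in E1 and 370 to 431 in HCT116, that of 8 macrophage and leukocyte markers 229.7 to 272 in E1 and 229 to 329.6 in HCT116, that of 6 neutrophil markers 122 to 155 in E1 and 127 to 139 in HCT116, and that of 5 endothelial markers 97.2 to 134 in E1 and 92.0 to 112 in HCT116.

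Sequences of 250 bases before the annotated gene start were compared because the families differ there in a way that the rule did not use. The RefSeq promoter table (GRCh38.p14) held 36 of the 57 genes. The letters searched, on both strands, were TGAGTCA for the AP-1 site bound by FOS and JUN proteins, TATAAA for a TATA box, GGGCGG for a GC box, and CACGTG, the core of the E-box read by the lysosomal regulator TFEB. The 4 motifs do not overlap one another in the sequences printed here, where every match is in capitals. The stretch of MMP7 is shown because it holds an AP-1 match and a TATA match, which start 67 and 30 bases before the gene start. That of PLAUR holds an AP-1 match 186 bases before the start, that of CTSH has 5 GC boxes, and that of CTSA has 2 GC boxes and 2 CACGTG cores.
MMP7 (chr11:102530748-102530997, minus strand): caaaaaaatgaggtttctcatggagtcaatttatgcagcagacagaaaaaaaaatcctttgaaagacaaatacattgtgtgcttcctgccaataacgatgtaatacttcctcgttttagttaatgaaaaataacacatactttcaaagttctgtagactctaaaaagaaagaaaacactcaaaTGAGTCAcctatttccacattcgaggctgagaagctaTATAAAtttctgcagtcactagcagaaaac
PLAUR (chr19:43670170-43670419, minus strand): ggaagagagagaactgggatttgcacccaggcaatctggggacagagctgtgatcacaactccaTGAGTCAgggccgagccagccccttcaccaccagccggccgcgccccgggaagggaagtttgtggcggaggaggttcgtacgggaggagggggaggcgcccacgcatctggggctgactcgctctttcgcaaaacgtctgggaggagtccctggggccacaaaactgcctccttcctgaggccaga
CTSH (chr15:78945047-78945296, minus strand): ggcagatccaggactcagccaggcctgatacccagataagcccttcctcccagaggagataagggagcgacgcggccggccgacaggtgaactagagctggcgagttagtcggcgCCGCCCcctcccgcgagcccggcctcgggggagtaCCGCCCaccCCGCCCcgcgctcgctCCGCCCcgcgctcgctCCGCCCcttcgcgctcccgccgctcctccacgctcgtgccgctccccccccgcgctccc
CTSA (chr20:45891085-45891334, plus strand): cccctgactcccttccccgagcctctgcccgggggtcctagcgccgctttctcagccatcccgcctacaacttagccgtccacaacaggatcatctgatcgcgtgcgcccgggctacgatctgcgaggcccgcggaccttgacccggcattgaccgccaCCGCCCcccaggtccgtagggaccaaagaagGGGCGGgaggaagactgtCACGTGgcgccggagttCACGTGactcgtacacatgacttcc
A TATA match was found in 5 of 10 MMP promoters, 0 of 10 cathepsin promoters and 2 of 9 serpin promoters, against 7.93% of the 9563 promoters of measured genes and 11.1% of all 27305 promoters in the table. The 5 MMP matches were all in genes of chromosome 11, MMP7, MMP8, MMP10, MMP20 and MMP26. They started between 110 bases (MMP8) and 28 bases (MMP26) before the gene start. A GC box was found in 4 of 10 MMP, 7 of 10 cathepsin and 4 of 9 serpin promoters, against 60.6% of the promoters of measured genes and 42.3% of all. The CACGTG core was in 3 cathepsin promoters, CTSA, CTSD and CTSF, and in that of SERPINE2, against 8.34% and 6.49%. The AP-1 letters were in MMP7, PLAUR, SERPINB13 and SERPINB8, against 2.98% and 4.16%. A match describes letters in this window and shows no binding.

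None of the 57 protease and inhibitor genes passed the test in either direction, where 0.418% of all genes did. At an unadjusted p under 0.05 in limma, 3 were higher in E1, CTSH, CTSG and SERPINB13, where 5.29% of all genes were, and 3 were lower, BSG, CTSA and TIMP3, where 9.7% of all genes were. The median difference was 0.03 for the 57 genes and -0.0055 for all genes, with 30 positive and 27 negative. A difference of at least 1 in size, which is 2-fold or more on this scale, was seen for 4 of the 57 genes, BSG, CTSA, ST14 and CTSD, all lower in E1, and for 5.47% of all genes. That all 4 were lower depends on the offset and scaling. An offset of 1 gave 6 higher (CTSG, CTSH, MMP8, MMP24, SERPINB4 and SERPINB13) and 6 lower, where 13.6% of all genes reached this size. Quantile normalization added CTSH as higher, and subtraction of array medians added CTSH and left CTSD at -0.94. With E1 array 1 alone it was seen for 1 of the 57, CTSH, which was higher. On all arrays of both lines 7 genes did not overlap and were higher in E1 (CTSG, CTSH, CTSS, MMP9, MMP12, MMP24 and SERPINB13), where 8.18% of all genes were, and 4 were lower (BSG, CTSA, MMP20 and TIMP3), where 10.7% were.

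**Figure D1:**
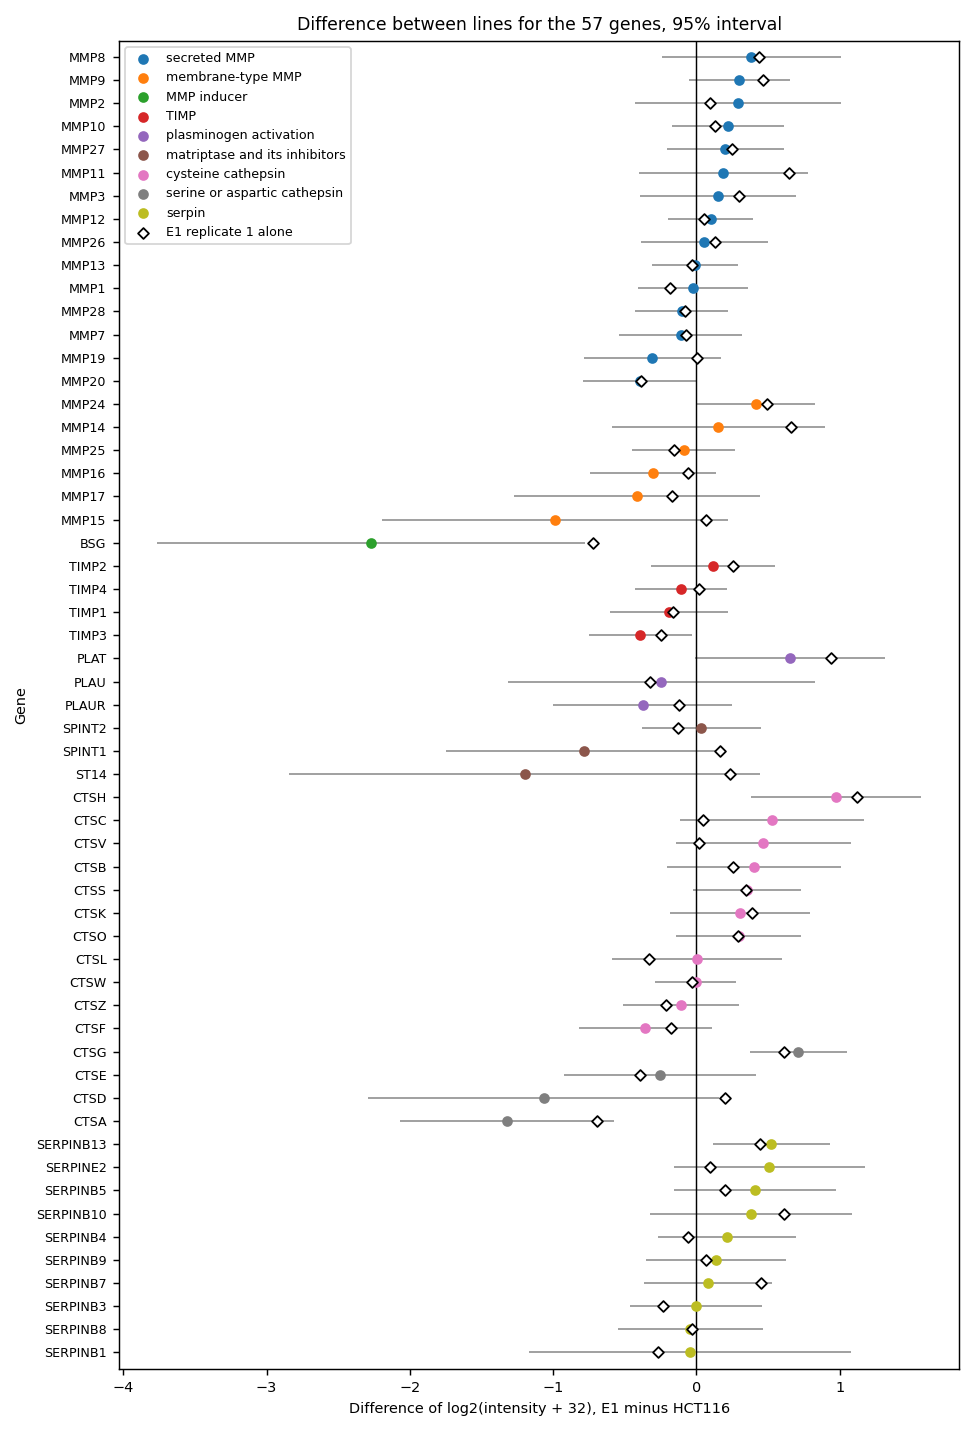
Difference between the lines for each of the 57 genes, in units of log2(intensity + 32), E1 minus HCT116. Coloured points are limma estimates from 3 arrays per line, coloured by role, with bars for their 95% interval, and open diamonds are E1 array 1 alone minus the HCT116 mean; BSG has the most negative estimate, -2.27, and CTSH the most positive, 0.98.

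Of 21 MMP genes, 11 lay below the median intensity of the array on all 6 arrays, as did 31.8% of all genes, and 4 (MMP9, MMP11, MMP14 and MMP25) lay below it on none, as did 48.2% of all genes. The 21 genes together ranged from 1.27 to 262 in E1 and from 1.37 to 215 in HCT116. Chromosome 11 carries 10 of them, MMP1, MMP3, MMP7, MMP8, MMP10, MMP12, MMP13, MMP20, MMP26 and MMP27, which are collagenases, stromelysins, matrilysins and related secreted enzymes. These 10 read between 1.27 and 70.6 in E1 and between 1.37 and 63.6 in HCT116, with differences from -0.40 to 0.38. The interstitial collagenase MMP1 and the collagenase MMP13 were near the bottom of the scale, at 5.44 ± 4.52 in E1 and 6.06 ± 4.62 in HCT116 (SD, n = 3 each) for MMP1 and 4.07 ± 0.701 in E1 and 4.39 ± 2.45 in HCT116 (SD, n = 3 each) for MMP13. Matrilysin, MMP7, which is made by colon tumour cells in many carcinomas, read 55.5, 36.8 and 70.6 on E1 arrays 1, 2 and 3, against 63.6, 54.0 and 62.4 on HCT116 arrays 1, 2 and 3, and the lines overlapped. MMP20, the tooth enamel protease, did not overlap, at 5.26, 4.04 and 5.54 on E1 arrays 1, 2 and 3, against 7.56, 21.2 and 22.6 on HCT116 arrays 1, 2 and 3, but all of these are low signals.

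Among the secreted enzymes with more signal, gelatinase B (MMP9), which cuts denatured collagen and basement membrane collagen, read 159, 125 and 132 on E1 arrays 1, 2 and 3, against 113, 92.7 and 114 on HCT116 arrays 1, 2 and 3. All 3 E1 values lay above the HCT116 values, by 0.30 (SE 0.15, adjusted p = 0.402), with an interval of -0.05 to 0.65. The other gelatinase, MMP2, read 43.8, 51.8 and 71.6 on E1 arrays 1, 2 and 3, against 19.6, 31.0 and 78.8 on HCT116 arrays 1, 2 and 3, with a wide spread in HCT116 and a difference of 0.29. Stromelysin 3, MMP11, known mostly as a stromal product, read 165, 77.9 and 104 on E1 arrays 1, 2 and 3, against 115, 91.3 and 77.6 on HCT116 arrays 1, 2 and 3, and only E1 array 1 stood above all HCT116 arrays. Its difference was 0.19 over the 6 arrays, and 0.65 when E1 array 1 was taken alone. The other MMP11 probe sets were dimmer and stood at -0.54 (0.15 with E1 array 1 alone) and 0.05. The macrophage elastase MMP12 was dimmer, below the array median on all 6 arrays. It did not overlap, at 33.4 ± 4.13 in E1 and 28.9 ± 1.15 in HCT116 (SD, n = 3 each), with a difference of 0.10 (SE 0.12, adjusted p = 0.787). The ranges of MMP19 and MMP28 overlapped, with differences of -0.31 and -0.10, and MMP28 was dim, at means of 2.49 in E1 and 5.16 in HCT116. Over the 15 secreted MMPs 9 differences were positive and 6 negative, with a median of 0.10, and subtraction of array medians made 13 positive.

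Membrane-type MMPs sit at the cell surface, and MMP14 (MT1-MMP) is the main activator of proMMP2. MMP14 read 262, 112 and 177 on E1 arrays 1, 2 and 3, against 215, 117 and 143 on HCT116 arrays 1, 2 and 3, so that the lines overlapped, and the difference was 0.15 (SE 0.31, adjusted p = 0.882), in an interval of -0.59 to 0.90. MMP15 read 76.3, 5.06 and 3.20 on E1 arrays 1, 2 and 3, against 133, 52.7 and 46.7 on HCT116 arrays 1, 2 and 3. E1 array 1 lay within the HCT116 range while E1 arrays 2 and 3 were far below it. MMP24 was higher on every E1 array, at 26.1, 21.9 and 21.5 on E1 arrays 1, 2 and 3, against 4.92, 19.7 and 5.17 on HCT116 arrays 1, 2 and 3, by 0.41 (SE 0.17, adjusted p = 0.335). All 6 of these values lay below the array median. The second probe set of MMP24 stood at 0.07, with overlap between the lines. The ranges of MMP16, MMP17 and MMP25 overlapped between the lines, with differences of -0.31, -0.41 and -0.09.

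Basigin, the glycoprotein CD147 that induces MMPs in neighbouring fibroblasts, had the difference of greatest size among the 57 genes at the offset of 32, while with an offset of 1 MMP15 stood at -2.48 and BSG at -2.47. BSG read 737, 148 and 99.7 on E1 arrays 1, 2 and 3, against 1193, 1297 and 1223 on HCT116 arrays 1, 2 and 3. The 3 HCT116 arrays lay close together, all E1 arrays were below them, and E1 array 1 was much nearer to HCT116 than E1 arrays 2 and 3. The difference was -2.27 (SE 0.62, adjusted p = 0.216) over the 6 arrays, and -0.72 when E1 array 1 was taken alone. With E1 arrays 2 and 3 alone it was -3.04, with an adjusted p of 0.00116, in a range of 0.00116 to 0.557 over the alternatives. BSG was read by 1 probe set. In a bulk sample fewer cells with a transcript and less of it per cell cannot be told apart.

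TIMP1, a broad MMP inhibitor secreted by many tumour cells, read 1247, 1132 and 1289 on E1 arrays 1, 2 and 3, against 1664, 1425 and 1150.3 on HCT116 arrays 1, 2 and 3. The lines overlapped, at 1223 ± 81.0 in E1 and 1413 ± 257 in HCT116 (SD, n = 3 each), and the interval of the difference, -0.60 to 0.22, includes 0. TIMP3, which binds to the matrix and also blocks ADAM proteases, read 54.8, 43.8 and 41.6 on E1 arrays 1, 2 and 3, against 80.0, 75.9 and 58.4 on HCT116 arrays 1, 2 and 3, with no overlap and a difference of -0.39 (SE 0.15, adjusted p = 0.311). The 4 probe sets of TIMP3 did not go the same way. The chosen one was lower in E1 and a second stood at -0.27, while the others stood at 0.55 and 0.31, and with the mean of all 4 the difference was 0.0495. TIMP2, which blocks MMP2 and also helps MMP14 to activate it, overlapped between the lines at 55.5 ± 9.50 in E1 and 49.4 ± 14.5 in HCT116 (SD, n = 3 each). TIMP4 read 3.22 ± 2.74 in E1 and 5.93 ± 2.24 in HCT116 (SD, n = 3 each), too low to order.

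**Figure D2:**
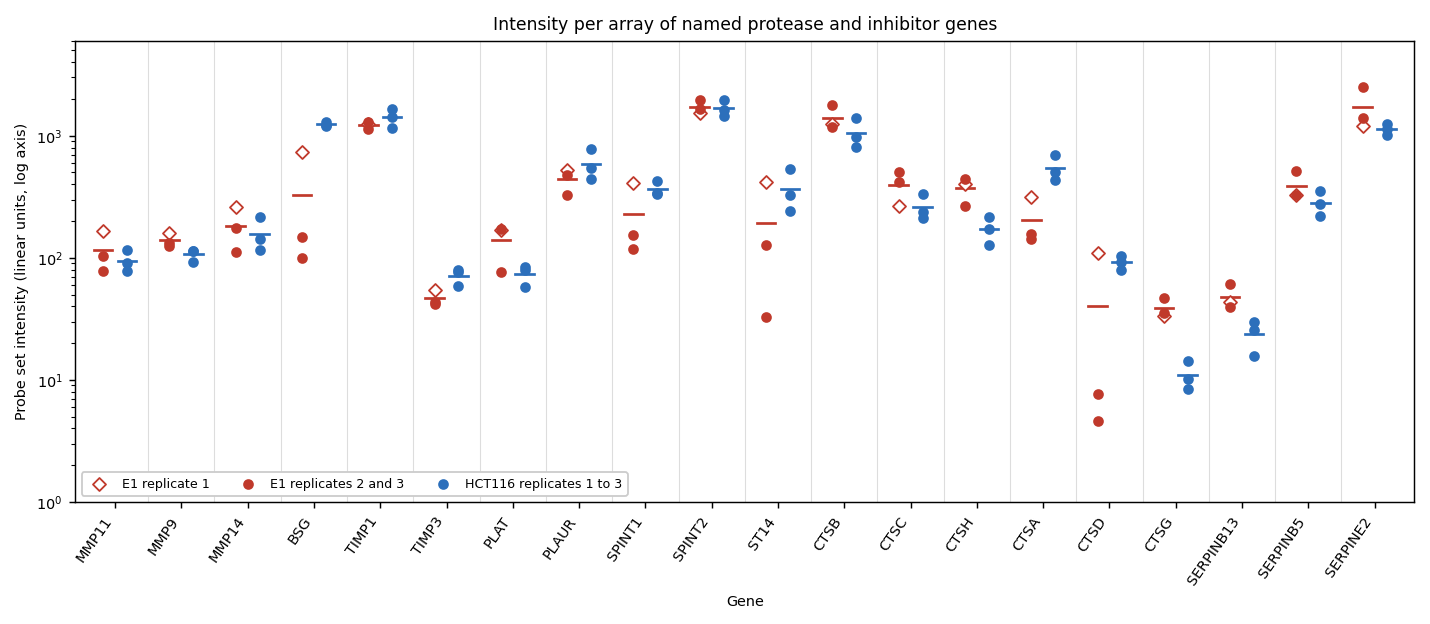
Probe set intensity on a log axis for the 20 genes named by rule, 1 column pair per gene with E1 left in red and HCT116 right in blue. Points are single arrays, short bars are means of 3 arrays, and the open diamond is E1 array 1; for BSG, SPINT1, ST14 and CTSD the diamond lies well above E1 arrays 2 and 3.

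In the plasminogen activator system no gene separated the lines in the chosen probe set. Urokinase, PLAU, read 245, 190.2 and 373 on E1 arrays 1, 2 and 3, against 279, 622 and 171 on HCT116 arrays 1, 2 and 3, and HCT116 array 2 alone was above every E1 array. Its receptor PLAUR read 523, 326 and 477 on E1 arrays 1, 2 and 3, against 544, 777 and 439.9 on HCT116 arrays 1, 2 and 3, also highest on HCT116 array 2, with a difference of -0.37 (SE 0.26, adjusted p = 0.556). Tissue-type plasminogen activator, PLAT, read 169.6, 76.8 and 172 on E1 arrays 1, 2 and 3, against 79.6, 83.9 and 57.6 on HCT116 arrays 1, 2 and 3. E1 arrays 1 and 3 were about 2-fold above HCT116 and E1 array 2 lay inside its range. The PLAT difference was 0.65 (SE 0.28, adjusted p = 0.339) over the 6 arrays, in an interval of -0.01 to 1.31, and 0.94 when E1 array 1 was taken alone.

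PLAU has a second probe set, and it gave other values. It read 154, 16.6 and 31.4 on E1 arrays 1, 2 and 3, against 226, 792 and 159.5 on HCT116 arrays 1, 2 and 3. All E1 arrays were below all HCT116 arrays, and the difference was -2.05 (SE 0.71, limma adjusted p = 0.240 over all probe sets). On E1 arrays 2 and 3 it was far below E1 array 1, a gap that the first PLAU probe set does not show. With E1 array 1 alone the second probe set stood at -0.88 and the first at -0.32. For PLAUR the 3 probe sets stood at -0.37, -0.53 and -0.07.

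**Figure D3:**
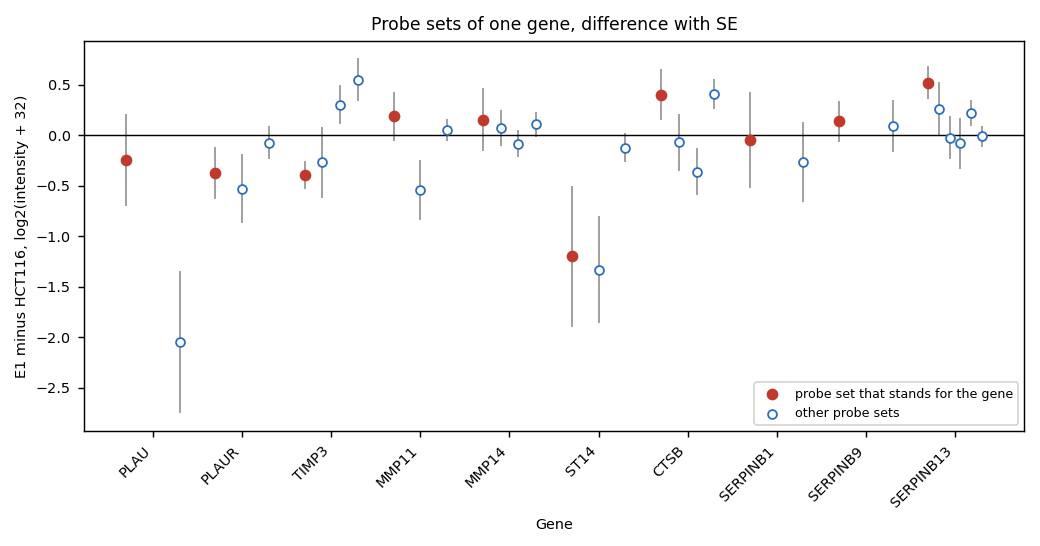
Difference between the lines, E1 minus HCT116 in log2(intensity + 32) with the SE of a limma fit over single probe sets, for genes with several probe sets, ordered within a gene by mean intensity. Filled red points stand for the gene and open blue points are its other probe sets; for PLAU they stand at -0.24 and -2.05, and those of TIMP3, CTSB, MMP11, MMP14 and SERPINB13 lie on both sides of 0.

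Matriptase, ST14, is an epithelial membrane serine protease that activates hepatocyte growth factor and prourokinase, and SPINT1 and SPINT2 (HAI-1 and HAI-2) are its Kunitz-type inhibitors. ST14 read 418, 127 and 32.7 on E1 arrays 1, 2 and 3, against 538, 242 and 328 on HCT116 arrays 1, 2 and 3. E1 array 1 lay within the HCT116 range, and E1 arrays 2 and 3 lay below it. The difference was -1.20 (SE 0.69, adjusted p = 0.468) over the 6 arrays, and 0.23 when E1 array 1 was taken alone. SPINT1 showed the same arrangement, at 413, 117 and 153 on E1 arrays 1, 2 and 3, against 340.1, 429 and 332 on HCT116 arrays 1, 2 and 3, with -0.78 over all arrays and 0.17 when E1 array 1 was taken alone. With E1 arrays 2 and 3 alone SPINT1 stood at -1.26, with an adjusted p of 0.0143 in a range of 0.0143 to 0.816 over the alternatives. SPINT2, in contrast, read 1523, 1671 and 1959 on E1 arrays 1, 2 and 3, against 1625, 1971 and 1446 on HCT116 arrays 1, 2 and 3, with overlap on every E1 array and a difference of 0.03 (SE 0.17, adjusted p = 0.963) in an interval of -0.38 to 0.45.

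The cysteine cathepsins are papain-type lysosomal proteases. Of 11 measured, 8 differences were positive and 3 negative, with a median of 0.30, and 0 passed the test. With E1 array 1 alone the median was 0.04. Cathepsin H, CTSH, an aminopeptidase, had the most positive difference of the 57 genes at the offset of 32. With an offset of 1 CTSG was ahead, at 1.74 against 1.10 for CTSH. It read 406, 264 and 443 on E1 arrays 1, 2 and 3, against 171, 217 and 128 on HCT116 arrays 1, 2 and 3. Every E1 array was above every HCT116 array, and the difference was 0.98 (SE 0.25, adjusted p = 0.191), with 1.12 for E1 array 1 alone. Over 15 alternatives CTSH stayed between 0.78 and 1.18, with adjusted p of 0.097 to 0.537, and was called in 0 of them.

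Cathepsin B, CTSB, an endopeptidase that tumour cells can also secrete, read 1241, 1175 and 1789 on E1 arrays 1, 2 and 3, against 981, 1388 and 811 on HCT116 arrays 1, 2 and 3, with overlap and a difference of 0.40 (SE 0.25, adjusted p = 0.51). Its 4 probe sets stood at 0.40, -0.07, -0.36 and 0.41. Cathepsin C (CTSC), which activates granule serine proteases, read 265, 421 and 504 on E1 arrays 1, 2 and 3, against 333, 210.1 and 238 on HCT116 arrays 1, 2 and 3, and cathepsin V (CTSV) read 239, 432 and 371 on E1 arrays 1, 2 and 3, against 292, 184 and 242 on HCT116 arrays 1, 2 and 3. For both, E1 array 1 lay within the HCT116 range and E1 arrays 2 and 3 above it. Cathepsin L, CTSL, did not separate, at 297 ± 104 in E1 and 288 ± 45.6 in HCT116 (SD, n = 3 each). Cathepsin S, CTSS, an enzyme of antigen-presenting cells, did not overlap but was dim, at 31.4 ± 9.27 in E1 and 17.4 ± 3.39 in HCT116 (SD, n = 3 each). The collagen-cutting cathepsin K of osteoclasts, CTSK, stood at 0.30, CTSO at 0.29, CTSF at -0.36, CTSZ at -0.11 and the lymphocyte enzyme CTSW at 0.00.

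The other cathepsins belong to the serine and aspartic classes. Cathepsin A, CTSA, a lysosomal carboxypeptidase that also protects beta-galactosidase and neuraminidase, read 318, 158 and 142 on E1 arrays 1, 2 and 3, against 694, 430.3 and 504 on HCT116 arrays 1, 2 and 3. All E1 arrays were below all HCT116 arrays, with E1 array 1 the nearest to them. The difference was -1.32 (SE 0.31, adjusted p = 0.168) over the 6 arrays, -0.69 when E1 array 1 was taken alone, and -1.63 with E1 arrays 2 and 3 alone, where the adjusted p was 0.0115, in a range of 0.0115 to 0.523 over the alternatives. Cathepsin D, CTSD, the main lysosomal aspartic protease, read 109.6, 4.56 and 7.60 on E1 arrays 1, 2 and 3, against 92.2, 79.1 and 104 on HCT116 arrays 1, 2 and 3. E1 array 1 exceeded all HCT116 arrays and the other E1 arrays were near the bottom of the scale, and the difference was -1.06 over the 6 arrays (-2.40 with an offset of 1 and -0.52 with 100), and 0.20 when E1 array 1 was taken alone. With E1 arrays 2 and 3 alone CTSD stood at -1.70, with an adjusted p of 0.0038 in a range of 0.0038 to 0.734.

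Cathepsin G, CTSG, a neutrophil granule protease, was dim but did not overlap. It read 33.6, 35.6 and 46.4 on E1 arrays 1, 2 and 3, against 8.43, 14.4 and 10.1 on HCT116 arrays 1, 2 and 3, below the array median everywhere, and the difference was 0.71 (SE 0.14, adjusted p = 0.131), with 0.61 for E1 array 1 alone. With E1 arrays 2 and 3 alone it stood at 0.76 with an adjusted p of 0.0363, in a range of 0.0363 to 0.459 over the alternatives. With an offset of 1 in place of 32 the CTSG difference was 1.74, and with 100 it was 0.32. Of the 6 neutrophil markers 3 differences were positive (ELANE, MPO and FCGR3B) and 3 negative (CSF3R, S100A8 and S100A9), 0 passed, and ELANE and MPO averaged 13.4 and 43.1 in E1 against 8.70 and 29.3 in HCT116. The part of other cells in the CTSG signal was not tested. Cathepsin E, CTSE, overlapped at 45.6 ± 19.6 in E1 and 61.9 ± 29.5 in HCT116 (SD, n = 3 each).

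Of the 10 serpins 7 differences were positive and 3 negative, and 0 passed. Quantile normalization and subtraction of array medians each made all 10 positive. Protease nexin 1, SERPINE2, an inhibitor of thrombin and of plasminogen activators, read 1208, 1401 and 2499.7 on E1 arrays 1, 2 and 3, against 1138, 1239.9 and 1017 on HCT116 arrays 1, 2 and 3. E1 array 1 lay within the HCT116 range, and the difference was 0.51 (SE 0.28, adjusted p = 0.449) over the 6 arrays, and 0.10 when E1 array 1 was taken alone. Maspin, SERPINB5, an epithelial serpin first described as a tumour suppressor in breast, read 325, 329 and 512 on E1 arrays 1, 2 and 3, against 277, 221 and 350.0 on HCT116 arrays 1, 2 and 3, with overlap and a difference of 0.41 (SE 0.24, adjusted p = 0.472). The granzyme B inhibitor SERPINB9 overlapped between the lines at a difference of 0.14, and the inhibitor of neutrophil elastase SERPINB1 read 273, 238 and 516 on E1 arrays 1, 2 and 3, against 309.8, 651 and 180.1 on HCT116 arrays 1, 2 and 3, again highest on HCT116 array 2.

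Chromosome 18 carries 7 of the measured serpins, SERPINB3, SERPINB4, SERPINB5, SERPINB7, SERPINB8, SERPINB10 and SERPINB13, most of them known from squamous epithelium. Apart from SERPINB5, none of them read above 81.6 on any array. SERPINB13 (headpin, an inhibitor of cathepsins K and L) had the smallest p among the serpins. It read 43.4, 60.7 and 39.7 on E1 arrays 1, 2 and 3, against 25.6, 15.7 and 29.7 on HCT116 arrays 1, 2 and 3, with no overlap and a difference of 0.52 (SE 0.17, adjusted p = 0.263). Its other 5 probe sets had differences from -0.08 to 0.26, and of these 1 dim probe set, with values from 1.05 to 12.0, also did not overlap between the lines. SERPINB3 and SERPINB4 are near-identical paralogs whose probes may share signal, and stood at 0.00 and 0.21. SERPINB7, SERPINB8 and SERPINB10 stood at 0.08, -0.04 and 0.38.

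The E1 arrays split for a set of these genes. For 9 of the 57, CTSD, CTSF, MMP15, MMP16, MMP19, SERPINB7, SPINT1, ST14 and TIMP4, E1 arrays 2 and 3 were both below all HCT116 arrays while E1 array 1 was not, where 10.7% of all genes did so. For 3, CTSC, CTSV and SERPINE2, E1 arrays 2 and 3 were both above HCT116 and E1 array 1 was not, against 11.4% of all genes. E1 arrays 2 and 3 are those with the high 3' to 5' ratios, and the part of that ratio in each gene's value was not tested. When E1 array 1 was left out 5 of the 57 genes passed, CTSG higher and BSG, CTSA, CTSD and SPINT1 lower in E1, where 8.97% of all genes passed. With E1 array 1 alone 0 of the 57 passed, and 6 had an unadjusted p under 0.05 in limma (BSG lower, and CTSG, CTSH, MMP11, PLAT and SERPINB7 higher), where 11.5% of all genes did.

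**Figure D4:**
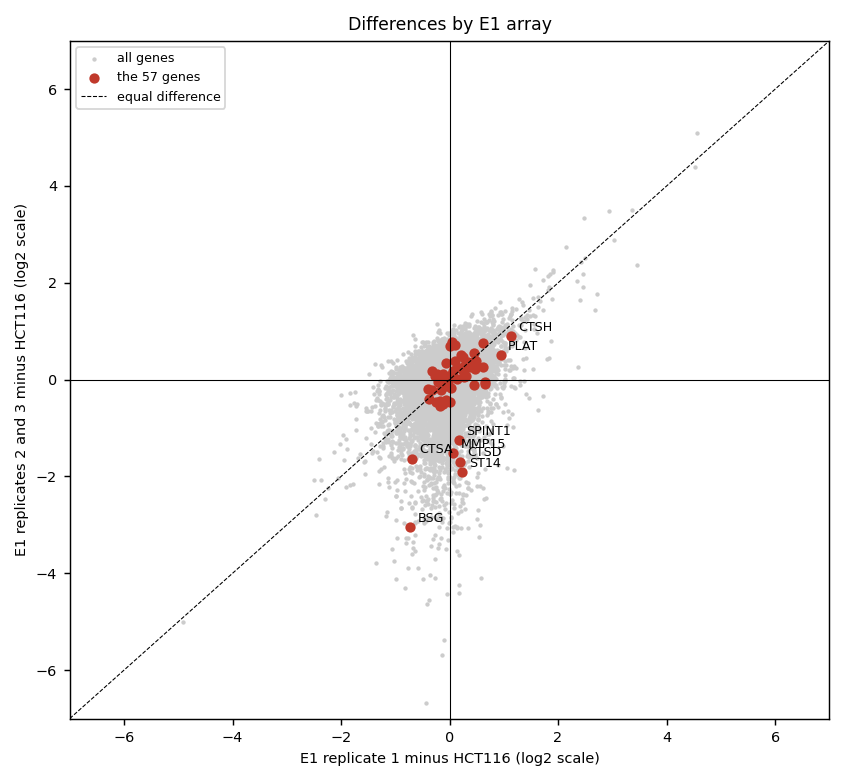
Difference from the HCT116 mean on the log2(intensity + 32) scale, for E1 array 1 on the horizontal axis and for the mean of E1 arrays 2 and 3 on the vertical axis. Each grey point is 1 of all genes and each red point 1 of the 57, with labels where a difference exceeds 0.9 in size; CTSH lies near the line of equal difference, while ST14, CTSD, MMP15 and SPINT1 are near 0 on the horizontal axis and below -1.2 on the vertical one.

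Genes that act with these proteases were read from 7 lists, and 0 genes of any list passed the test over all genes. Without E1 array 1, where 8.97% of all genes passed, 11 of the 86 measured list genes did. Higher were SERPINA5 and PLGRKT, and lower were CST3, JUNB, RELA, GAA, M6PR, CD151, FURIN, KLK6 and KLK8. The list of serine proteases outside the 57 had 16 measured genes, among them F2R, which is a receptor and not a protease. Of the 16, 1 was higher and 5 were lower without adjustment (limma p under 0.05), where 5.29% and 9.7% of all genes were. The median difference was -0.22, and -0.12 with E1 array 1 alone. The smallest p was that of KLK6, a kallikrein, at -1.15 (SE 0.19, adjusted p = 0.0952). Of 9 cystatins, the inhibitors of cysteine cathepsins, 8 differences were negative, with a median of -0.26 (-0.29 with E1 array 1 alone), and the smallest p was that of CST5, at -0.52 (SE 0.15, adjusted p = 0.231). CST5 was dim, at means of 7.78 in E1 and 25.6 in HCT116. Only 4 of the 9 cystatins had a mean above the median gene in the line where they were higher. Of 10 other serpins 3 were higher and 1 was lower before adjustment, where 5.29% and 9.7% of all genes were, led by SERPINA5, the protein C inhibitor, which also blocks urokinase, at 1.84 (SE 0.30, adjusted p = 0.0885). The median of these serpins was 0.15, and 0.52 with E1 array 1 alone.

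Of 12 lysosomal partners of the cathepsins 0 were higher and 3 were lower before adjustment, against the same 5.29% and 9.7%, and the median was 0.08, with -0.04 for E1 array 1 alone. The smallest p was that of M6PR, a mannose 6-phosphate receptor that carries cathepsins to lysosomes, which read 233, 49.7 and 29.7 on E1 arrays 1, 2 and 3, against 563, 473 and 459 on HCT116 arrays 1, 2 and 3, with a difference of -2.26 (SE 0.52, adjusted p = 0.162) and -0.99 when E1 array 1 was taken alone. Of 13 plasminogen-binding proteins and PLAUR partners 2 were higher and 0 were lower before adjustment (5.29% and 9.7% of all genes), with a median of 0.00, or 0.12 with E1 array 1 alone, and the smallest p for the integrin chain ITGAV, at 0.56 (SE 0.16, adjusted p = 0.217). Of 12 genes of MMP activation and control 1 was higher and 2 were lower before adjustment (5.29% and 9.7% of all genes), with a median of -0.03, or 0.07 with E1 array 1 alone, and the smallest p for CD44, a hyaluronan receptor that docks MMP9, at 0.62 (SE 0.20, adjusted p = 0.263) and 0.35 with E1 array 1 alone. Of 14 genes listed as ETS, AP-1 and NF-kappaB factors 1 was higher and 5 were lower before adjustment (5.29% and 9.7% of all genes). Their median was -0.29, or -0.14 with E1 array 1 alone. SP1 and CTNNB1 are on this list but belong to none of these families, and SP1, at -0.70, was among the 5 lower genes. JUNB, an AP-1 protein, stood at -2.01, and at -0.34 with E1 array 1 alone. The smallest p was that of the AP-1 protein FOSL2, at -0.80 (SE 0.24, adjusted p = 0.232).

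**Figure D5:**
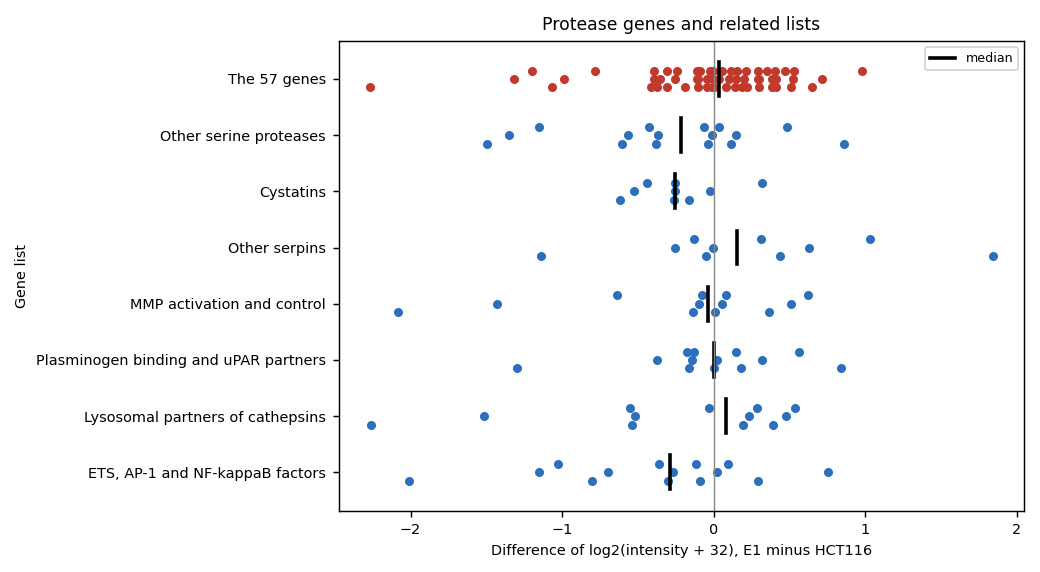
Difference between the lines on the log2(intensity + 32) scale, E1 minus HCT116, for the 57 genes in red and 7 lists of related genes in blue, 1 point per gene with a black bar at the median. The medians lie between -0.29 and 0.15, and the 57 genes have a median of 0.03.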

How the data were processed

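Total RNA of both cell lines was labelled with biotin and hybridised to Affymetrix arrays, per the labels' protocols. The deposited table holds 1 intensity per probe set and array on a linear scale. How the authors summarised, background-corrected or scaled these intensities is not given in the sources used here, and detection calls were not used. Median intensity was 48.0 to 61.2 over the E1 arrays and 61.8 to 66.5 over the HCT116 arrays, and 3 arrays per line limit the precision.

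Of 22283 probe sets, 68 controls were left out. Genes were named from the platform annotation, and chromosomes came from a RefSeq table (GRCh38.p14), which held all 57 genes. Values were transformed as log2(intensity + 32) without further scaling and tested in R 4.3.3 with limma 3.58.1 (linear model and eBayes, two-sided, Benjamini-Hochberg over 11963 genes, threshold 0.05). The fit was tested on simulated data. Figures used matplotlib 3.10.9.

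The genes and lists were chosen with earlier results of these data known. Fully described are genes called, at an unadjusted p under 0.05 or with a mean of at least 500, and per role the 2 of largest difference with a mean above the median gene; other genes are given to complete a role. Of each list, the smallest p is named. Every column belonged to 1 of the 6 arrays. Alternatives were other scalings, offsets, filters, probe set rules, moderation, a replicate block and omitted arrays.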

Additional observations from a re-analysis of the deposited data

How the results depend on the processing

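The count of 0 called genes among the 57 was the same under every alternative that kept E1 array 1, the fit over single probe sets and the stricter threshold included. Leaving out each array in turn gave 0 to 5, the 5 without E1 array 1. The count of genes called among all 11963 was 50 and moved to 10 with an offset of 100, 8 without the _x_at and _s_at probe sets, 3 at an adjusted p under 0.01, 2 with E1 array 1 alone, and 2 to 1073 when each array was left out. Genes of the 57 at an unadjusted p under 0.05 numbered 6, with 11 after quantile normalization, 3 without the _x_at and _s_at probe sets, and 6 to 14 when each array was left out, the 14 without E1 array 1. Subtraction of array medians moved the median of all genes by over 0.1, to 0.12. The replicate numbers did not pair the arrays. Deviations of same-numbered E1 and HCT116 arrays correlated at -0.056, -0.36 and -0.12 across genes, and with the replicate number as a block 2 genes were called among all and 0 of the 57. No gene of the 57 was called over all 6 arrays, so there was no called value that could turn its sign. Of 311 single-gene comparisons with an alternative, 13 turned the sign. With E1 array 1 alone these were SPINT1 at 0.17, ST14 at 0.23, CTSD at 0.20 and SPINT2 at -0.13. The other ST14 probe sets stood at -0.18 there. When each array was left out SPINT2 ranged from -0.0662 to 0.15, negative without HCT116 array 3 and without E1 array 3 (-0.0625). MMP14 ranged from -0.10 to 0.42, negative without E1 array 1 and without HCT116 array 2 (-0.0053). MMP11 ranged from -0.0421 to 0.38, negative without E1 array 1, and averaging the probe sets of a gene put MMP11 at -0.10 and TIMP3 at 0.0495. Without the _x_at and _s_at probe sets CTSB stood at -0.069 and SERPINB13 at -0.024, each read there by another probe set. An offset of 1 widened the differences of dim genes and an offset of 100 narrowed them, by over 2 times for CTSG and CTSD. BSG, CTSH, PLAT, CTSG, CTSD, MMP9 and MMP20 rest on 1 probe set each. Signals below the array median set no order among dim genes.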

Other observations

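The kallikreins KLK6, KLK8 and KLK10 and 2 clade A serpins, chosen here after their values were seen, did not overlap between the lines, where 10.7% of all genes were lower and 8.18% higher in E1 without overlap. KLK7 was also lower without overlap, while KLK5, KLK11 and SERPINA3 overlapped. KLK10, a secreted serine protease family member, read 130.4, 68.0 and 142 on E1 arrays 1, 2 and 3, against 626, 278 and 278 on HCT116 arrays 1, 2 and 3. KLK6 read 234, 146 and 168 on E1 arrays 1, 2 and 3, against 503, 426 and 392.2 on HCT116 arrays 1, 2 and 3, and KLK8 read 371, 267 and 242 on E1 arrays 1, 2 and 3, against 442, 442 and 444 on HCT116 arrays 1, 2 and 3. For all 3 genes every E1 array, E1 array 1 included, was below every HCT116 array, with differences of -1.49, -1.15 and -0.56 for KLK10, KLK6 and KLK8, or -1.29, -0.82 and -0.24 with E1 array 1 alone, and none passed over all genes. The trypsin gene PRSS3 read 391, 281 and 416 on E1 arrays 1, 2 and 3, against 880.5, 1594 and 630.2 on HCT116 arrays 1, 2 and 3, likewise without overlap and without a call. In the other direction SERPINA5 read 116, 67.3 and 200.1 on E1 arrays 1, 2 and 3, against 9.0, 10.5 and 10.3 on HCT116 arrays 1, 2 and 3, with all E1 arrays above HCT116, and 1.82 with E1 array 1 alone. The elastase inhibitor alpha-1-antitrypsin, SERPINA1, read 149.7, 87.8 and 164 on E1 arrays 1, 2 and 3, against 54.4, 49.5 and 38.8 on HCT116 arrays 1, 2 and 3, with a difference of 1.03 (SE 0.22, adjusted p = 0.144).

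HCT116 array 2 stood apart from HCT116 arrays 1 and 3 for PLAU, PLAUR, SERPINB1, PRSS3 and the AP-1 factor FOSL1. PLAU, PLAUR and SERPINB1 were each highest there among all 6 arrays. FOSL1 read 467, 413 and 395 on E1 arrays 1, 2 and 3, against 729, 1553 and 633 on HCT116 arrays 1, 2 and 3, and PRSS3 had its highest value on the same array. Without HCT116 array 2, PLAUR stood at -0.16, and the chosen probe set of PLAU turned to 0.22, from -0.24 over all 6 arrays.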
